A study of Mus musculus with 5 samples.

Results

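The transcription factor Runx3 was bound in CD8+ T cells (CD8-TC) not only at the 5′ ends of genes but also at transcript starts that lie inside genes or belong to noncoding RNAs. Of 9135 Runx3-bound regions in cells expanded with IL-2, 625 (6.84%) had their centre under 1 kb from an annotated transcript start but at least 1 kb from the 5′ end of every protein-coding gene. These 625 regions at alternative or noncoding starts are described here. Starts were those of the GENCODE vM1 annotation on mouse genome mm9, and each region was assigned to the transcript whose start was nearest. The rule used position only. It left 1779 regions at protein-coding gene starts, 5152 regions over 5 kb from any start, and 1579 regions between these classes. At the limit of 1 kb, 47 of the 625 regions lay under 100 bp inside it, and 77 Runx3-bound regions under 100 bp outside it were left out.

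The cells were splenic CD8-TC of ICR mice, an outbred stock, isolated by positive selection on anti-CD8 beads, TCR-activated for 2 days with anti-CD3e and anti-CD28, and cultured for 4 further days with 100 u/ml IL-2. The 5 ChIP-seq libraries comprised 2 with anti-Runx3 antibody, 2 with non-immune serum (NIS) as control and 1 with antibody to H3K4me1, a histone modification that is abundant at enhancers. All cells had the same treatment, so the design compares classes of genomic regions and not conditions. Reads of repeats had been joined before peaks were called, so no value below has a replicate error. How many reads lay behind a region is unknown, since the lists hold positions only. Intervals are 95% Wilson intervals for shares and Newcombe intervals for differences. They cover counting error among regions only, and neighbouring regions or copies of a sequence are not independent. Of the CD8 T cell marker genes, 12 of 12 had an H3K4me1-marked region in or within 5 kb of the gene, against 28.5% of all 22380 protein-coding genes. The same was true of 3 of 8 B cell markers, 4 of 8 myeloid and dendritic cell markers and 2 of 6 NK cell markers.

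Many mammalian genes have more than 1 promoter. An internal promoter can change the first exon and leave the protein intact, can remove the N-terminal part of the protein, or can give a transcript that is not translated. Noncoding RNA genes, which include lincRNAs, antisense RNAs and the host transcripts of miRNAs, carry promoters of their own. Active enhancers are also transcribed, so an annotated noncoding start may lie in a promoter or in an enhancer. H3K4me1 is typically low over an active promoter's centre and high over enhancers and the flanks of promoters. RUNX proteins recognise short words, and 4 of them (RUNX words) were searched on both strands. The first was TGTGGT, the most familiar form, and TGTGGC differs from it in the last base. The others hold a CpG, TGCGGT being the form that ends in T and TGCGGC the form that ends in C.

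Stretches of 100 bases from the central 200 bp window of named regions show the words behind these classes. They are given 5′ to 3′ on the strand of the nearest transcript, with RUNX words of either strand in capitals, and come from mm9. The first 4 were H3K4me1-marked and lay within genes of T cell activation, at chr4:150298457-150298556 (Tnfrsf9, plus strand), chr2:160581579-160581678 (Plcg1, plus strand), chr4:129235872-129235971 (Lck, minus strand) and chr16:84713522-84713621 (Mir155, plus strand).
Tnfrsf9: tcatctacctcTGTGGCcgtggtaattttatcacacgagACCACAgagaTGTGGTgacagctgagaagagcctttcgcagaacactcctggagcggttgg
Plcg1: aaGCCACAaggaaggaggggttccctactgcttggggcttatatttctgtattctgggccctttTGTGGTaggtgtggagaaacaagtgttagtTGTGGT
Lck: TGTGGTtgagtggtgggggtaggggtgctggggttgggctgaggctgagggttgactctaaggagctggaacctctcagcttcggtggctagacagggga
Mir155: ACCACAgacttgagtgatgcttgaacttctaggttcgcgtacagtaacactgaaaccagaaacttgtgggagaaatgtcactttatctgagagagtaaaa

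Other regions carried no H3K4me1 and lay in CpG-rich sequence, at chr15:61818239-61818338 (Myc, plus strand), chr3:130815175-130815274 (Lef1, plus strand), chr17:35974004-35974103 (Tubb5, minus strand) and chr11:74987061-74987160 (Mir132, plus strand). They are shown as examples of the CpG-containing word TGCGGT, which marked regions held less often but did not lack, the second region of Tnfrsf9 among them.
Myc: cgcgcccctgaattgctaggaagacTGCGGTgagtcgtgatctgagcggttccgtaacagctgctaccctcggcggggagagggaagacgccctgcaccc
Lef1: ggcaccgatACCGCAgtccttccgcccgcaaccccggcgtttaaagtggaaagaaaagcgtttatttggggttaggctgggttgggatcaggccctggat
Tubb5: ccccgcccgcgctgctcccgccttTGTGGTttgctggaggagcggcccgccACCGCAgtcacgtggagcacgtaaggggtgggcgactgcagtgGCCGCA
Mir132: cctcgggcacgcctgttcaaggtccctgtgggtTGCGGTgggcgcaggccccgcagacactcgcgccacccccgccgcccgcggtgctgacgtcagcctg

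The first question was what kind of transcript began at these regions. Protein-coding genes accounted for 422 of the 625 regions (67.5%), over 392 genes, and 203 regions (32.5%, interval 28.9 to 36.3%) were nearest to a start of another gene type. The 203 comprised 58 at lincRNAs, 31 at antisense RNAs, 8 at other long noncoding RNAs, 52 at small RNAs, 17 at pseudogenes and 37 at variable or diversity segments of immune receptor genes. The centres of 373 regions lay in introns, 83 were intergenic, 65 lay in UTRs, 62 in noncoding exons and 42 in coding exons. Regions were 189 to 1417 bp wide, with a median of 521 bp. Among the starts themselves, 1092 of 39808 distinct starts at least 1 kb from every protein-coding gene start had a Runx3-bound centre under 1 kb away (2.74%), against 8.83% of protein-coding gene starts. The share was 4.62% (4.23 to 5.03%) for coding transcripts of protein-coding genes, 3.98% (3.25 to 4.86%) for lincRNAs, 2.80% (2.07 to 3.78%) for antisense RNAs and 0.405% (0.267 to 0.612%) for pseudogenes. For miRNAs, snRNAs and snoRNAs it was 1.34%, 1.43% and 1.325%. The share was highest, at 8.13% (6 to 10.9%), for immune receptor segments. Where an H3K4me1-marked region lay within 1 kb of the start, 20.4% of starts were bound (18.9 to 22.1%), and where none did, 1.59% were (1.47 to 1.73%).

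The second question was whether these regions carried the enhancer-associated mark. H3K4me1-marked regions overlapped 271 of the 625 (43.4%, 39.5 to 47.3%), beside 57.3% of all Runx3-bound regions. The share was 31.6 percentage points above that of regions at protein-coding gene starts (11.7%, interval of the difference 27.5 to 35.8) and 28.9 points below that of regions over 5 kb from any start (72.3%, interval of the difference -33.0 to -24.8). Regions at protein-coding and at other genes did not differ detectably, with 43.6% and 42.9% marked (difference 0.745 points, interval -7.56 to 8.90). By gene type the share ran from 37.8% at immune receptor segments to 54.8% at antisense RNAs, and the intervals of all types overlapped. Within protein-coding genes there was a difference. Where the bound start began a transcript annotated as coding, 99 of 267 regions were marked (37.1%), and where it began only transcripts of other types (retained intron, processed transcript and nonsense-mediated decay), 85 of 155 were (54.8%). The difference was -17.8 points, with an interval of -27.2 to -7.91. By the type of the nearest transcript, 56.4% of regions at processed transcripts and 51.6% at retained introns were marked, but 4 of 19 at nonsense-mediated decay transcripts (21.1%, 8.51 to 43.3%), against 37.9% at coding transcripts.

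**Figure D1:**
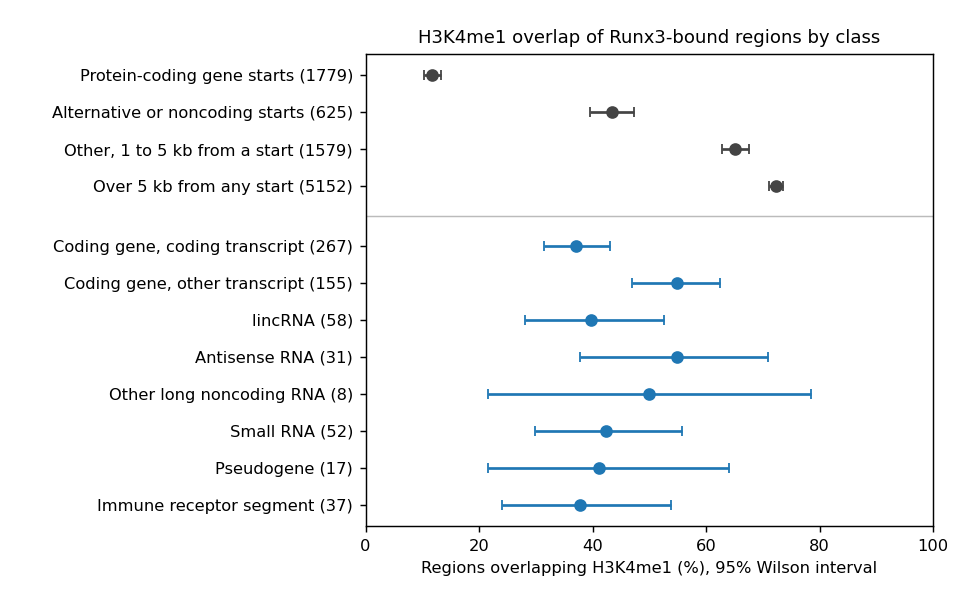
H3K4me1 overlap in percent (x axis) for each class of Runx3-bound regions, with the number of regions in parentheses and 95% Wilson intervals as bars; grey points are the classes of the whole list and blue points the gene types of the alternative or noncoding starts. The share at alternative or noncoding starts (43.4%) lies between those at gene starts (11.7%) and over 5 kb from a start (72.3%).

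The mark also varied with the distance to the start. It overlapped 35.6% of regions centred under 250 bp from the start (100 of 281), 43.7% at 250 to 500 bp (52 of 119) and 52.9% at 500 bp to 1 kb (119 of 225). The intervals of the first and last of these bins, 30.2 to 41.4% and 46.4 to 59.3%, did not overlap. The median distance was 386 bp for marked and 233 bp for unmarked regions. The profile of cover around the bound starts differed by kind of start. At coding transcript starts, H3K4me1 covered 35.6% of positions 1.25 kb upstream, 22.5% at the start and 23.2% at 1 kb downstream, that is, cover was lower on the transcript's side. At the other transcript starts of coding genes, cover was highest close to the start, with 49.0% at 250 bp upstream. Noncoding RNA and pseudogene starts had 31.3% at 1 kb upstream, 30.7% at the start and 31.3% at 1 kb downstream. At immune receptor segments the cover was narrow, with 35.1% at the start and 5.41% at 1.25 kb on either side.

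**Figure D2:**
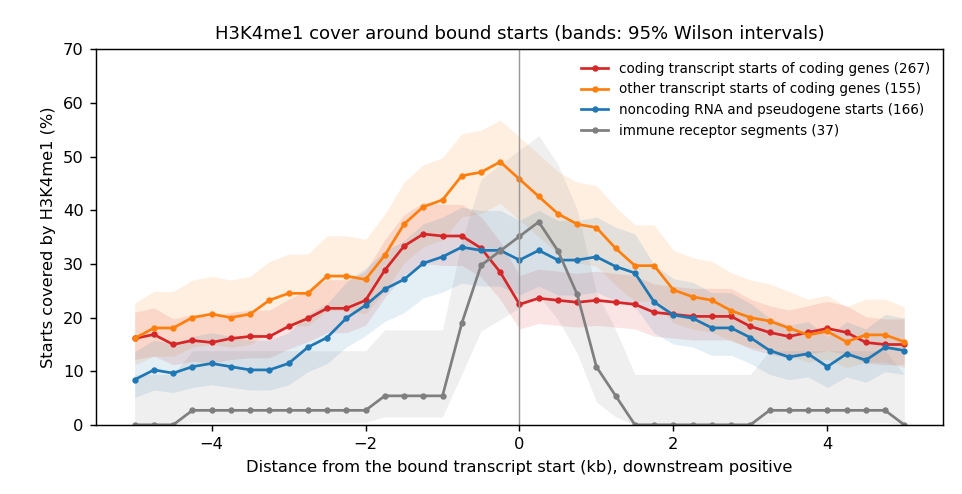
Share of bound transcript starts covered by an H3K4me1-marked region (y axis, percent) by distance from the start (x axis, kb, downstream positive), in steps of 250 bp; lines are the 4 kinds of start with their numbers, and bands are 95% Wilson intervals. Coding transcript starts fall from 35.6% upstream to 22.5% at the start, and other transcript starts of coding genes peak at 49.0%.

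At the 422 regions in protein-coding genes, the bound start lay a median of 11200 bp downstream of the gene's 5′ end. The gene's own 5′ start was itself within 1 kb of a Runx3-bound centre in 64 cases (15.2%) and within 1 kb of H3K4me1 in 83 (19.7%). A coding transcript began at the bound start in 267 cases. Its start codon was that of a transcript from the gene's 5′ end in 110 cases, and another start codon was used in 127. In 30 further cases no coding transcript began at the 5′ end. In 93 of the 422 (22.0%), more annotated transcripts began at the bound start than at the 5′ end. Most genes had a single such region, 22 had 2, Susd3 had 3, and Akap13 and Sema4d had 4 each. Akap13 encodes a kinase-anchoring protein, and Sema4d a semaphorin of lymphocytes. The 4 regions of Sema4d lay at 3 starts of processed transcripts 16636, 38982 and 45021 bp into the gene, and 2 of them were marked. In Akap13, 3 of 4 regions were marked, and 1 of these overlapped H3K4me1 by 1 bp only. The widest regions were at Shisa5 (1417 bp, chr9:108953300-108954716, intron, unmarked), Tasp1 (1263 bp, chr2:139867552-139868814, intron, covered by H3K4me1 in full) and Ncoa2 (1209 bp, chr1:13362295-13363503, intron, unmarked), a p53-induced apoptosis gene, the protease taspase and a nuclear receptor coactivator.

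Genes with T cell functions held 24 of the 422 regions, at 22 of the 254 genes in 6 functional lists. In all, 1.75% of protein-coding genes had such a region. The corresponding shares were 9.76% of T cell receptor signalling genes (4 of 41), 14.3% of costimulation and inhibitory receptors (4 of 28) and 4.08% of cytokine and JAK-STAT genes (2 of 49). They were 4.00% of cytotoxic effectors and NK-type receptors (1 of 25), 9.33% of lymphocyte transcription factors (7 of 75) and 11.1% of adhesion, homing and chemokine genes (4 of 36). Genes differ in whether they have an alternative start to bind, as did 38.2% of all genes and between 32.1% (costimulation and inhibitory receptors) and 61.0% (T cell receptor signalling) of the lists. Of genes with such a start, 4.49% of all had a bound region (384 of 8544), against 44.4% of costimulation and inhibitory receptors (4 of 9), 28.6% of adhesion genes (4 of 14), 16.0% of T cell receptor signalling genes (4 of 25) and 15.9% of transcription factors (7 of 44). The share was 11.1% for cytotoxic effectors (1 of 9) and 8.70% for cytokine genes (2 of 23). The 5′ gene starts of the lists were bound more often as well, from 18.7% of transcription factors to 40.0% of cytotoxic effectors, against 8.83% of all genes. Runx3 lay anywhere in or within 5 kb of 68.0% (cytotoxic effectors) to 90.2% (T cell receptor signalling) of list genes, against 23.5% of all. For H3K4me1 the shares were 80.0% to 100%, against 28.5%. The lists were chosen with earlier results of these data known, and each share of bound alternative starts rests on 1 to 7 genes. H3K4me1 overlapped 12 of the 24 regions, beside 271 of all 625, and at 18 of the 24 a coding transcript began, beside 267 of 422.

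The 4 regions at T cell receptor signalling genes all overlapped H3K4me1. Lck, the kinase that starts T cell receptor signalling, was bound at chr4:129235588-129236157, 237 bp upstream of the start of 3 transcripts. That start lay 15250 bp downstream of the gene's 5′ end, from which 1 transcript began, and used the same start codon. H3K4me1 covered 149 of its 570 bp, and the 5′ start was bound as well. Plcg1, the phospholipase downstream of Lck, had its region in an intron at chr2:160581196-160581975, covered by H3K4me1 in full. It held 4 RUNX words in the central 200 bp and 7 over all 780 bp. Its nearest start was that of a retained-intron transcript 943 bp away, 23606 bp into the gene. Nfatc2, a calcium-regulated transcription factor, was bound over 1085 bp at chr2:168416217-168417301, 894 bp upstream of a start shared by 5 transcripts, where 3 began at the 5′ end. The adaptor Sla, which limits receptor signalling, was bound 137 bp upstream of an internal start.

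Costimulatory and inhibitory receptors followed. Tnfrsf9 (4-1BB), a costimulatory receptor induced by activation, had 2 neighbouring regions at chr4:150298072-150298941 and chr4:150298966-150299600, both covered by H3K4me1 in full. They lay 909 and 132 bp upstream of a start 10744 bp into the gene, and its coding sequence began at the same codon as from the 5′ end. The wider region had 6 RUNX words over its length and the other had 3. The 5′ start of Tnfrsf9 was bound too. Cd160, an NK-type receptor, was bound 142 bp upstream of an internal start, with full H3K4me1 cover. At Lag3, an inhibitory receptor, H3K4me1 covered 75 of 659 bp. Cd28, the main costimulatory receptor, was bound at chr1:60802829-60803356 without H3K4me1, 110 bp upstream of a start used by 2 of its 3 transcripts. From the 5′ end of Cd28, 29558 bp upstream, no coding transcript began. Of the cytokine genes, Il12rb2, a chain of the IL-12 receptor, was covered in full at a start 36494 bp into the gene, while Tgfb1 was unmarked.

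The regions at the 7 bound genes of the transcription factor list stood mainly in CpG-rich, unmarked sequence. A window was called CpG-rich where its observed to expected CpG ratio was at least 0.6 and its GC content at least 50%, as in 17.5% of all Runx3-bound regions. Lef1 (ratio 0.921), Myc (0.826), Prdm1 (0.814), Foxp1 (0.704), Runx1 (0.700) and Nr3c1 (0.948) met this and carried no H3K4me1. These were 6 of the 7 bound genes of the list, and Nr3c1 encodes the glucocorticoid receptor. The region at Runx1 (chr16:92696778-92697366) had its centre in a UTR, 501 bp downstream of a start 128738 bp from the gene's 5′ end, and that at Prdm1, which encodes Blimp-1, lay 48 bp upstream of a start 69753 bp from it. The region at Myc (chr15:61818090-61818486) lay 301 bp upstream of a start 1643 bp into the gene. The exception was Nfkb1, an NF-κB subunit. It was bound at a processed transcript and at a nonsense-mediated decay transcript, 83064 and 87751 bp into the gene, with 3 and 2 central RUNX words, and both regions were marked.

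The remaining list members were the adhesion and effector genes. Srgn, the proteoglycan of cytotoxic granules, was bound 17 bp downstream of a start that used the same start codon as that of the 5′ end, 19696 bp away. Itgb1, an integrin chain, Arhgef1, a guanine nucleotide exchange factor, and Coro1a, an actin-binding protein, were bound without H3K4me1. Dock10, another exchange factor, was marked over 248 of 467 bp. No RUNX word was found in the central window of Srgn, Coro1a, Dock10, Lag3, Foxp1 or Nfatc2. All of these but Dock10 and Foxp1 had 1 or 2 RUNX words elsewhere in the region.

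Long noncoding RNAs were nearest to 97 regions, of which 44 were marked (45.4%, 35.8 to 55.3%). The centre lay upstream of the start in 60 of the 97 (61.9%, 51.9 to 70.9%), while over all 625 regions the share was 51.2% (47.3 to 55.1%). Neat1, an abundant nuclear RNA of paraspeckles, had the widest region of its class (1171 bp, chr19:5845123-5846293), centred 230 bp upstream of its start and unmarked. Among lincRNAs the widest were at Gm15407, Gm16794 and Gm17395 (1007, 1006 and 972 bp). H3K4me1 covered 633 bp of the first, 797 bp of the second and only 14 bp of the last. Gm17395 lay 16929 bp from Klrb1b, which encodes an NK-type receptor. Gm11958, whose region lay 28859 bp from Lif, had the most RUNX words of all, with 6 in the central 200 bp. The 100 bases at chr11:4186387-4186486 on the plus strand, shown for the spacing of these words, held 5 of them as TGTGGC in a repeated unit.
Gm11958: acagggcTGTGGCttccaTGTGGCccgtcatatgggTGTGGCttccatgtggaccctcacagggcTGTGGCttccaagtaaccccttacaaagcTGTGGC

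For some long noncoding RNA regions a gene of lymphocyte function was the nearest protein-coding gene or held the region. Those named in this paragraph were chosen after their values were seen, and how often any region lies beside such genes was not counted. Distances run from the region centre to the 5′ end of the nearest protein-coding gene. Over the 166 regions at noncoding RNAs and pseudogenes, this distance had a median of 17890 bp and an upper quartile of 40690 bp. The distances to Dusp5, Cd69, Rasgrp1 and Ier3 below exceed that quartile. The lincRNAs 5830416P10Rik and 4833407H14Rik had marked regions 64210 and 67506 bp from Dusp5, a MAP kinase phosphatase gene. 2310001H17Rik had a marked and an unmarked region, 42253 and 40699 bp from the activation marker Cd69. Gm13982 had a marked region 74549 bp from Rasgrp1, a Ras activator of T cells, and Gm20442 a marked one 57749 bp from Ier3. Antisense RNAs lay over a protein-coding gene on the other strand in 19 of 31 cases. Gm3345, with the widest antisense region (790 bp), lay in Gimap1, a GTPase gene of lymphocyte survival, and was unmarked. The region at BC042782 was unmarked and lay in the coding exon of Jun, an AP-1 subunit gene, 755 bp upstream of the antisense start. Gm17122 and Gm16008 had marked regions. That at Gm17122 lay within Coro1c, 12009 bp from Selplg, the selectin ligand gene. That at Gm16008 lay 5856 bp from Tnfrsf18, a costimulatory receptor gene. Antisense and lincRNA regions differed in TGTGGT, which stood in 54.8% and 27.6% of their central windows (difference 27.3 points, interval 6.03 to 46.0). ETS words, defined below, differed as well (74.2% and 51.7%, difference 22.5 points, interval 1.1 to 39.9). H3K4me1 shares did not differ detectably (54.8% and 39.7%, difference 15.2 points, interval -6.18 to 34.9), nor did the other sequence features compared. The intervals take no account of the number of features compared.

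Within 1 kb of an annotated miRNA start lay 18 regions, with 20 miRNA genes, and 7 of the 18 were marked. Of 1494 distinct miRNA starts at least 1 kb from every protein-coding gene start, 20 had a Runx3-bound centre under 1 kb away. That was 1.34% (0.868 to 2.06%), below the 2.74% of all such starts. Of the 20 genes, 6 were matched to mature sequences in RefSeq (GRCm38.p6), and mature arms of 4 of these miRNAs are given with the seed, bases 2 to 8, in capitals.
mmu-miR-155-5p: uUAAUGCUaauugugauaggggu
mmu-let-7g-5p: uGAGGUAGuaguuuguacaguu
mmu-miR-132-3p: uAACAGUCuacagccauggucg
mmu-miR-212-3p: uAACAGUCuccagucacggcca

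The last pair share a seed and a locus. Mir155, which is induced in activated lymphocytes, was bound at chr16:84713412-84713743, within its host lincRNA and 309 bp downstream of the host's start, with H3K4me1 over 137 of 332 bp. Mir150, a miRNA of resting lymphocytes, was bound at chr7:52376665-52377441, 74 bp upstream of its hairpin, with H3K4me1 over 102 of 777 bp. Mirlet7g was bound in an intron of Wdr82, 735 bp upstream of the hairpin and marked over 322 of 478 bp. The region at Mir132 and Mir212 (chr11:74986837-74987383) and that at Mir744 in Map2k4 were unmarked. A marked region in Vps13b lay near Mir875 and Mir599, and an unmarked region near Mir1893 in Epc1. The other 11 regions lay at predicted miRNAs, and 3 of them were marked. In annotation a miRNA start is the 5′ end of the hairpin and need not be where transcription begins.

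Small RNAs other than miRNAs were nearest to 35 regions, of which 19 lay at snRNAs, 11 at snoRNAs, 4 at miscellaneous RNAs and 1 at a 5S rRNA copy. Such genes have many near-identical copies. The share of 32-base words of a region that occur once in the genome was 100% for the median of all 625 regions, but under 50% for 23 of them, 15 at immune receptor segments and 8 elsewhere. The widest small RNA regions were at the snoRNA AC124005.1 (1135 bp, unmarked), at the 5S rRNA copy (1024 bp, marked over 835 bp) and at a U3 copy in Tex14 (997 bp, unmarked), and 45.2% of the U3 region's words were unique. A 7SK copy in Paqr5 had 4 central TGTGGT words, with full H3K4me1 cover. The widest pseudogene regions were at Gm10060 (1024 bp, 31.0% unique words), at a pseudogene record within Mafg (848 bp) and at Gm10286 (714 bp, marked). Tef and Tubb5, a bZIP transcription factor gene and a tubulin gene, also had 4 central RUNX words each and were unmarked, and only 59.5% of the words of the Tef region were unique.

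The regions at immune receptor segments are described by locus, a division chosen after their values were seen. They comprised 22 regions at the immunoglobulin heavy chain (IgH) locus on chromosome 12, 10 at Trav segments of the T cell receptor α locus on chromosome 14 and 5 at Trbv segments of the β locus on chromosome 6. Of annotated V segments, 20 of 112 at IgH had a Runx3-bound centre under 1 kb from their start (17.9%), and so had 9 of 108 at Tra and Trd, 6 of 25 at Trb, and none of 99 at Igk. H3K4me1 overlapped 10 of the 22 IgH regions, 4 of the 5 Trbv regions and none of the 10 Trav regions (upper limit 27.75%). Of the Trav and Trbv regions, 6, all at Trav, held no unique 32-base word. The reads were 40 to 42 bases and uniquely aligned, so the placement of these 6 regions among copies is uncertain. All 5 Trbv regions had at least 97.7% unique words. The IgH regions had a median of 66.5%, a lower quartile of 43.3% and a lowest share of 8.97%, at Ighv1-62-2. Placement is thus less sure for regions with few unique words as well, among them the IgH segment AB069917 (20.7%) and Trav16d-dv11 (11.1%). Of the 8 B cell markers, 3 had H3K4me1 and 2 had Runx3 in or within 5 kb, against 28.5% and 23.5% of all genes, and the study's methods describe the cultured cells as almost all CD3+ CD8-TC. The part of other cells in the IgH regions was not tested.

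A V segment is followed by a recombination signal sequence, which the RAG recombinase recognises and which consists of a conserved heptamer and nonamer with a spacer between them. Of the 22 IgH regions, 20 lay at V segments and 2 at diversity segments. The place of the words was examined after the bound segments had been seen. In 14 of these 20, TGTGGT stood at the same place, its first base being the 13th base after the segment's 3′ end. Read on the segment's strand it was ACCACA in the spacer. The 39 bases after 3 bound segments, on the minus strand of chromosome 12, and after 2 segments without Runx3 or a RUNX word there are shown to compare the spacers.
Gm16683, bound: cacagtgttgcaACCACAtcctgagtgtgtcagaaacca
Gm16814, bound: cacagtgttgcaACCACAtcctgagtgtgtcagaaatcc
AB069917, bound: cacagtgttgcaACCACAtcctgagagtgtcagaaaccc
Gm16610, not bound: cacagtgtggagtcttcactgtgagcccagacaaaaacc
Gm16612, not bound: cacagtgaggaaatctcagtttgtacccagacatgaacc

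These stretches lie at chr12:115232641-115232679, chr12:117150516-117150554, chr12:116396575-116396613, chr12:115202560-115202598 and chr12:115186454-115186492. Among all 112 IgH V segments, TGTGGT stood in the 39 bases after 47, and a Runx3-bound region covered that stretch in 15 of the 47 (31.9%, 20.4 to 46.2%). Of the 65 segments without it, 3 were covered (4.62%, 1.58 to 12.7%), and the difference was 27.3 points (13.2 to 41.9). Inside the bound segments 2 further places recurred. TGTGGC stood 92 bases before the end of the segment in 11 of the 20 and TGCGGT 21 bases before it in 10 of the 20. Of the V segments with the former, 11 of 45 were bound (24.4%, 14.2 to 38.7%), and of those without it 9 of 67 (13.4%, 7.23 to 23.6%). Of those with the latter, 10 of 25 were bound (40.0%, 23.4 to 59.3%), and of those without it 10 of 87 (11.5%, 6.37 to 19.9%). The 3 places were chosen as common in the bound segments, and the 39-base stretch was examined after these had been seen. A higher bound share among segments with the words was thus partly built in, so the shares are descriptions and test nothing. The words were not independent of each other, as V segments of a family are copies. The intervals take no account of these points or of unsure placement among copies. Segments were counted as bound by position alone, AB069917 with its 20.7% unique words included. The 18 covered stretches had 17 distinct sequences.

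**Figure D3:**
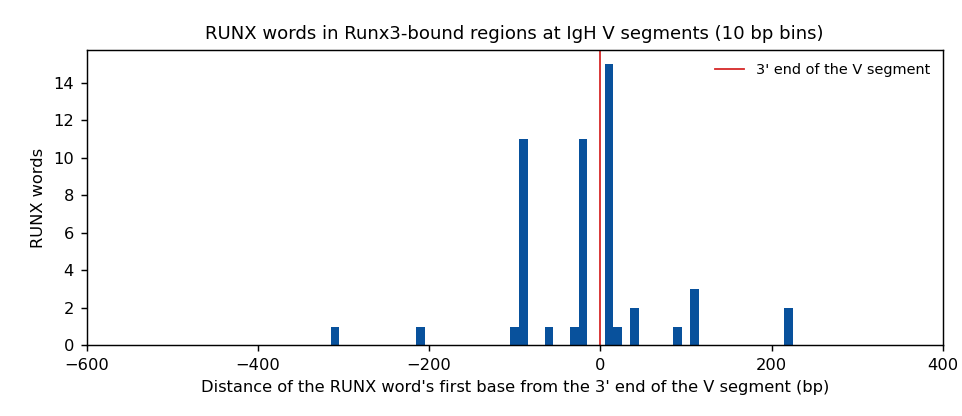
Number of RUNX words (y axis) by the distance of their first base from the 3′ end of the V segment (x axis, bp, positive beyond the end; bins of 10 bp), over the 20 Runx3-bound regions at IgH V segments. Of the 51 words, 14 start at base 13 beyond the segment, and 11 and 10 stand at 2 places within it.

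The third question was which sequence features these regions shared. A RUNX word stood in the central 200 bp of 77.1% of the 625 regions (73.7 to 80.2%), beside 78.7% of all Runx3-bound regions, and in 32% of windows of the same length at all alternative or noncoding starts. For TGTGGT alone the share was 48.6% (44.7 to 52.6%), beside 54.3% of all Runx3-bound regions and 13.4% of those windows. It was 24.7 points above that at protein-coding gene starts (23.9%, interval of the difference 20.3 to 29.1) and 14.9 points below that over 5 kb from any start (63.5%, interval of the difference -19 to -10.8). TGCGGT went the other way, with 18.2% of the 625 regions (13.7% of all Runx3-bound regions), 25.7% at gene starts and 9.74% far from starts. ETS factors are partners of RUNX proteins, and the ETS words searched were AGGAAA with its variant AGGAAG, and the forms that begin with CpG, CGGAAA with its variant CGGAAG. An ETS word stood in 63.7% of the windows, beside 66.1% of all regions. That share did not differ detectably from gene starts (difference -3.27 points, interval -7.67 to 1.03). The variant CGGAAG alone did, with 13.6% of the windows (12.3% of all regions) against 32.8% at gene starts. Its difference was -19.2 points, with an interval of -22.5 to -15.6. AP-1 words (TGACTCA or TGAGTCA) were rare, with 5.12% of the windows and 6.49% of all regions. Their share was above the 2.02% at gene starts (difference 3.1 points, interval 1.44 to 5.19). It was below the 7.86% over 5 kb from any start (difference -2.74 points, interval -4.4 to -0.603). The GC box GGGCGG stood in 19.8% of the windows, beside 15.4% of all regions and 48.2% at gene starts.

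Within the 625 regions most of these features differed with H3K4me1. TGTGGT stood in 59.4% of marked and 40.4% of unmarked regions (difference 19 points, 11.1 to 26.6), TGCGGT in 12.5% and 22.6% (difference -10.1 points, -15.8 to -4.02) and the GC box in 8.12% and 28.8% (difference -20.7 points, -26.3 to -14.8). CpG-rich windows made up 3.32% of marked and 35.0% of unmarked regions. AP-1 words stood in 7.75% of marked and 3.11% of unmarked regions (difference 4.64 points, 1.1 to 8.68). ETS words did not differ detectably (65.3% and 62.4%, difference 2.88 points, -4.73 to 10.4). Marked regions did not differ detectably from regions over 5 kb from a start in TGTGGT (difference -4.14 points, -10.2 to 1.69), the GC box (2.55 points, -0.228 to 6.46) or CpG-rich windows (0.759 points, -0.874 to 3.66). They differed in TGTGGC, with 35.1% against 28.9% (6.13 points, 0.556 to 12.1). In TGTGGT, the GC box and CpG-rich windows, unmarked regions stood between these and gene starts. Their share of TGTGGT was 16.4 points above that of gene starts (11.1 to 22.0) and their share of CpG-rich windows 36.3 points below it (-41.5 to -30.8). In other words unmarked regions did not differ detectably from gene starts. The differences were -3.09 points for TGCGGT (-7.64 to 1.95), 3.03 for TGTGGC (-1.35 to 7.92), -4.52 for ETS words (-10.1 to 0.849) and 1.08 for AP-1 words (-0.48 to 3.52).

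**Figure D4:**
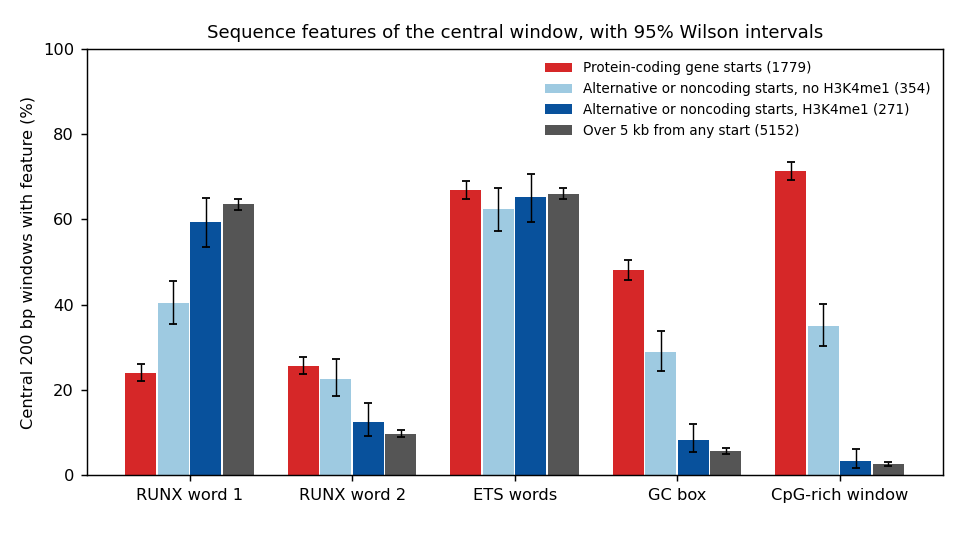
Share of central 200 bp windows with each feature (y axis, percent) in 4 classes of Runx3-bound regions, with 95% Wilson intervals; RUNX word 1 is TGTGGT and RUNX word 2 is TGCGGT. For TGTGGT, marked regions at alternative or noncoding starts stand close to regions over 5 kb from a start (59.4% and 63.5%). Unmarked ones lie between these and gene starts (40.4% and 23.9%). For TGCGGT and ETS words, unmarked regions do not differ detectably from gene starts.

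Base composition separated the regions further. CpG-rich windows accounted for 133 of the 625 regions (21.3%), against 71.3% at gene starts. Among CpG-rich regions, alternative or noncoding starts and gene starts did not differ detectably, neither in H3K4me1 (6.77% and 4.65%, difference 2.12 points, -1.31 to 7.80) nor in TGTGGT (16.5% and 15.7%, difference 0.860 points, -4.90 to 8.34). Among the 492 regions that were not CpG-rich, H3K4me1 overlapped 53.3%, which was 23.8 points above gene starts of the same kind (29.4%, interval 17.8 to 29.6) and 20.2 points below regions over 5 kb from a start (73.4%, interval -24.7 to -15.6). TGTGGT was likewise in between, at 57.3% against 44.5% and 64.5%. The difference between coding and other transcript starts of protein-coding genes was also present outside CpG-rich windows, where 49.0% of 192 and 62.7% of 134 regions were marked (difference -13.7 points, -24.1 to -2.75). In CpG-rich windows it was 1.90 points (-16.4 to 10.8), over 75 and 21 regions.

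**Figure D5:**
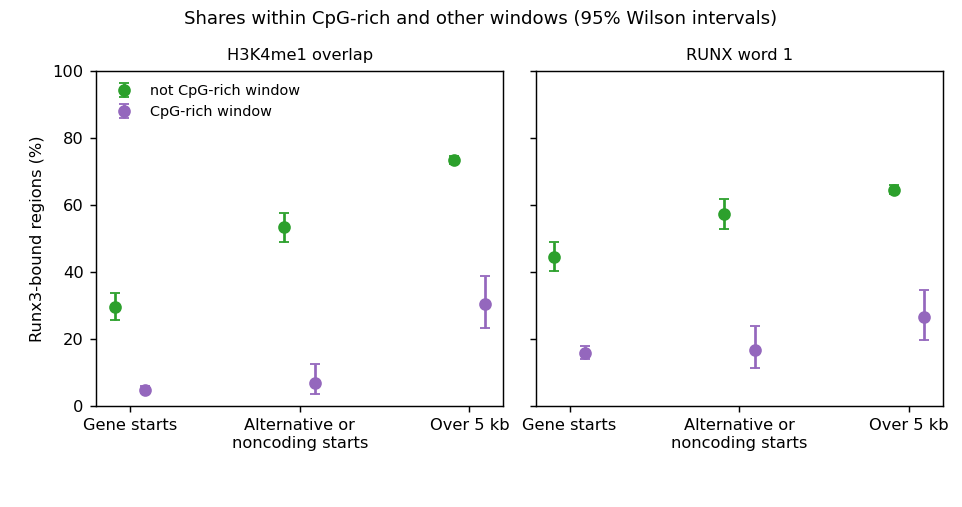
Share of Runx3-bound regions (y axis, percent) that overlap H3K4me1 (left) or hold RUNX word 1, TGTGGT (right), for CpG-rich and other central windows in 3 classes, with 95% Wilson intervals. In CpG-rich windows the alternative or noncoding starts (6.77% marked) are close to gene starts (4.65%), and in other windows (53.3%) they lie between gene starts (29.4%) and regions over 5 kb away (73.4%).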

How the data were processed

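ChIP-seq reads of 40 to 42 bases were, per the labels and the study's methods, aligned by the authors to mm9 with ELAND. Uniquely aligned reads were kept, repeats joined, and peaks called with MACS against joined NIS reads. The deposited values were peak start and end positions in bp, with 0 columns of height or score. They are therefore positions and not counts or signal, and the depth per sample was not used here. Only uniquely aligned reads can place a peak, so copies of a sequence are under-represented. The labels give 1 H3K4me1 library, while their protocol speaks of 2 replicates.

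Classes were computed from GENCODE vM1 on NCBIM37 (mm9), with coordinates counted from 1 and overlap of at least 1 bp. RUNX, ETS, AP-1 and GC box words were searched in the central 200 bp on both strands. Transcripts starting within 100 bp shared a start. Unique words were 32-base words found once on the autosomes and X. The scripts ran in Python 3.11.15 with SciPy 1.17.1, pandas 2.3.3, NumPy 2.4.6, pysam 0.24.0 and matplotlib 3.10.9, and the functions were tested on simulated data. No p-value was computed. Regions were named from the 3 widest of each gene type, those at genes of the functional lists or within 1 kb of a miRNA, and the 5 with most RUNX words. The genes with the most regions were named as well, and further long noncoding RNA and immune receptor regions were chosen after their values were seen. The members and lists were chosen with earlier results of these data known. Alternatives were other distances, transcript sets, overlap rules, widths and motif windows, and 2 added after seeing the data, namely unique sequence and no immune receptor segments.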

Additional observations from a re-analysis of the deposited data

How the results depend on the processing

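Under the alternatives 62 values were computed, of which 44 stayed within the interval of the reported value (for counts, within 1.5 times) and 18 moved beyond it. The difference in H3K4me1 between protein-coding and other genes ranged from -4.73 to 4.08 points, and its interval spanned 0 each time. The 625 regions became 400 with starts under 500 bp. The share at genes that are not protein-coding, 32.5%, became 38.9% without retained-intron, processed and nonsense-mediated decay transcripts, 20.4% with manual annotation only and 28.2% without immune receptor segments. The H3K4me1 share, 43.4%, became 38% under 500 bp, 38.7% without those transcript types, 33.8% where at least 50% of the region had to be covered, 47.4% with gene starts kept 2 kb away, 47.8% measured from the nearest edge, 48.9% in regions of at least median width and 51.5% with H3K4me1 widened by 500 bp. With the widened marks the difference from regions over 5 kb away, -28.9 points, became -24.5 points. The RUNX word share, 77.1%, became 53.3% in the central 100 bp and 92.2% over whole regions, and the TGTGGT difference from gene starts 17.8 points in the central 100 bp. The share of starts bound, 2.74%, became 1.76% within 500 bp, 2.92% with manual annotation and 2.32% with starts within 100 bp counted once.

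No paired analysis was possible because the deposited lists were called on joined repeats and hold no columns per replicate, and for the same reason no value without a replicate was computed. The lists hold no scores or read numbers, and binding strength and depth per region were not analysed here.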
